A study of Mus musculus with 2 samples.

Results

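The miR-181 family was taken as the 6 mouse miRNA genes Mir181a-1, Mir181a-2, Mir181b-1, Mir181b-2, Mir181c and Mir181d, chosen by gene symbol in the GENCODE M21 annotation, 6 of the 2202 miRNA genes in the count tables. The libraries were microRNA-seq, in which RNA below 30 nucleotides is sequenced, made from the left cerebral cortex of 2 females of the strain B6CASTF1/J at an age of 2 months. These mice are F1 hybrids between C57BL laboratory mice and CAST, a strain of wild origin. Both libraries form 1 group with no treatment or altered allele, so the values describe a level in cortex and its spread between animals and no condition is compared. The labels number the animals as separate biological replicates (called animal 1 and animal 2 here), although both carry the same donor identifier. Since there was 1 library for each, an animal's own biology and the preparation of its library cannot be told apart.

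A miRNA gene is transcribed into a hairpin, from which a 5p arm and a 3p arm are cut; an arm bound by an Argonaute protein represses messenger RNAs that pair with its seed, bases 2 to 8. The miR-181 genes are arranged as 3 clusters of an a- or c-type hairpin followed by a b- or d-type hairpin. The family is best known in mouse thymocytes, where miR-181a raises the sensitivity of T cell receptor signalling, and it is also expressed in neurons and astrocytes.

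Across the 3 clusters the 5p arms were nearly alike and shared a single seed, and the 3p arms differed more. The 5p arms are shown because they decide which copies a read can tell apart; the seed is in capitals and the sequences, 5′ to 3′, are RefSeq's on GRCm38.p6, the build that mm10 names.
miR-181a-5p: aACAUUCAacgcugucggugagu
miR-181b-5p: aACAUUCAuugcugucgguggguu
miR-181c-5p: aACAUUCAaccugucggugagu
miR-181d-5p: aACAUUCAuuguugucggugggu
All 6 genes carried the 5p seed ACAUUCA, and no other gene in the RefSeq miRNA table had it on any arm. Counted from the 5′ end, miR-181b-5p differed from miR-181a-5p by A9U, C10U and A21G and by 1 further base at the 3′ end. The arm of miR-181d-5p differed from miR-181b-5p by C12U and by lacking that last base. The c-type arm had 22 bases against 23 in the a-type arm and differed from it by an edit distance of 1. Edit distances among the 4 distinct 5p arms ran from 1 to 5.

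The 3p arms are shown because each is specific to its copy, by few bases in the case of the a and b copies, again with bases 2 to 8 in capitals.
miR-181a-1-3p: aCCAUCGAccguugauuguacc
miR-181a-2-3p: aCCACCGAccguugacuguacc
miR-181b-1-3p: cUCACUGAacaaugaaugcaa
miR-181b-2-3p: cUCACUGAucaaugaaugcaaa
miR-181c-3p: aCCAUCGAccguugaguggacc
miR-181d-3p: cCCACCGGgggaugaauguca
Edit distances among these 6 arms ran from 2 to 11. The 3p arm of Mir181a-1 had the same bases 2 to 8 as that of Mir181c, and the 3p arms of both b copies shared theirs, whereas Mir181a-2 and Mir181d each had bases 2 to 8 that no other arm in the table held. From Mir181a-1 to Mir181a-2 the changes were U5C and U16C, the first of them inside bases 2 to 8.

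The shared 5p arms bear on how the counts can be read. The whole of miR-181a-5p lies in both a hairpins and the whole of miR-181b-5p in both b hairpins, while each 5p arm of the chromosome 8 cluster and all 6 of the 3p arms lay in no other annotated miRNA hairpin. The stretch common to a pair of copies is shown next, with the 5p arm in capitals and the bases around it in lower case.
Mir181a-1 and Mir181a-2: gAACAUUCAACGCUGUCGGUGAGUuugg
Mir181b-1 and Mir181b-2: ucAACAUUCAUUGCUGUCGGUGGGUU
The a copies were identical for 28 bases, 4 of them after the arm. The b copies were identical for 26 bases and parted at the base directly after the arm. A read that lies wholly within a common stretch does not name its copy. Reads mapping to several places have an entry of their own in the tables, 48.9% (animal 1) and 48.2% (animal 2) of mapped reads. The tables do not say which arm a counted read came from. The counts of the a and b copies are therefore uncertain as levels. The several-place entry stayed out of the levels, and how much of it came from these copies was not measured.

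On mm10, the chromosome 1 cluster holds Mir181a-1 (ENSMUSG00000065565.1, chr1:137966455-137966541, plus strand) and, 97 bases further on, Mir181b-1 (ENSMUSG00000065458.1, chr1:137966639-137966718). Both lie in an intron of the noncoding transcript Gm4258 on the same strand. Mir181b-1 also lies wholly in an exon of the lincRNA A430106G13Rik, which covers the last 11 bases of Mir181a-1, and the lincRNA Gm26936 spans both on the opposite strand. On chromosome 2, Mir181a-2 (ENSMUSG00000065423.1, chr2:38852735-38852810, plus strand) is 1019 bases before Mir181b-2 (ENSMUSG00000065578.1, chr2:38853830-38853918). These run opposite to an intron of Nr6a1, a nuclear receptor gene, and Mir181b-2 also runs opposite to an exon of Gm44144. On chromosome 8, Mir181c (ENSMUSG00000065483.2, chr8:84178873-84178961, minus strand) and Mir181d (ENSMUSG00000076338.1, chr8:84178716-84178787) are 85 bases apart in an intron of Nanos3, a germ cell gene, on the same strand. Opposite-strand counts were 0 at 5 members in both animals, and Mir181a-2 had 3 in animal 1 and 0 in animal 2.

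**Figure D1:**
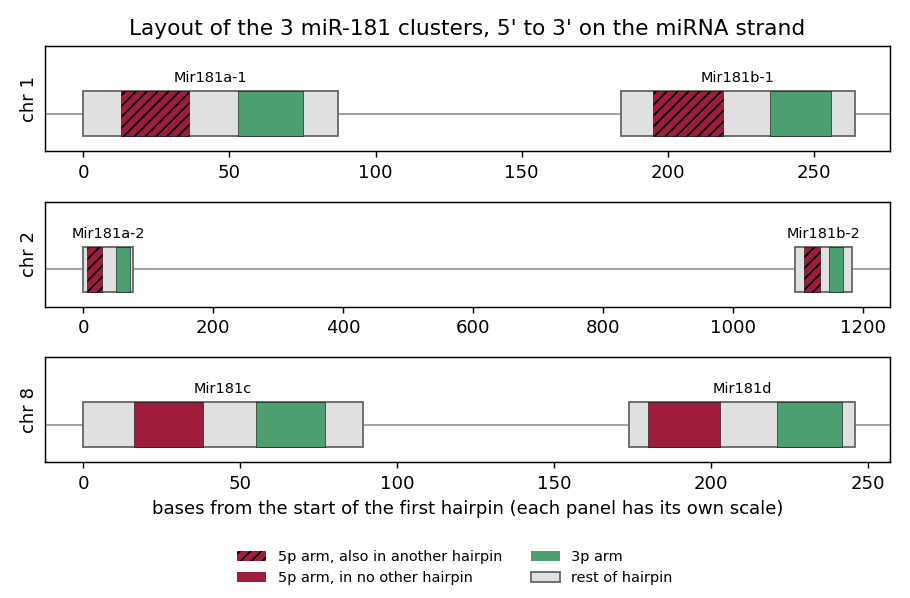
Layout of the 3 clusters, in bases from the start of the first hairpin on the miRNA strand, with hairpins in grey, 5p arms in red (hatched where the whole arm also lies in another hairpin) and 3p arms in green. Only the chromosome 8 pair has 5p arms of its own, and the chromosome 2 pair is 1019 bases apart against 97 and 85.

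The libraries held 4415759 counts at miRNA genes in animal 1 and 2279562 in animal 2. Levels are CPM, a gene's count over that total times 1000000, and detection required at least 2 CPM in each animal. A count of 0 allows up to 3 counts, or 0.679 CPM in animal 1 and 1.32 CPM in animal 2. Of the 11 neuron markers all were detected, with levels summing to 58821 CPM (animal 1) and 106853 CPM (animal 2). The higher sum in animal 2 rested on Mir132, at 24389 CPM in animal 1 and 79576 CPM in animal 2. Without it, a choice made after seeing its values, the other 10 summed to 34432 CPM (animal 1) and 27278 CPM (animal 2). Those 10 did not share a direction. Beyond counting error (defined below), animal 1 had the larger level for 4 and animal 2 for 5, and 1 stayed inside. Of 5 liver and striated muscle genes, 2 were detected and the list summed to 86.3 and 55.7 CPM, and Mir1a-1 was at 0 in both. All 4 leukocyte markers were detected at 1388 and 1742 CPM in sum, 4 of 4 choroid plexus and ciliated cell markers at 552 and 1050 CPM, and both erythroid markers at 425 and 53.1 CPM. Most of the leukocyte sum was Mir150, at 1319 CPM in animal 1 and 1668 CPM in animal 2. Mir204 made up 480 and 652 CPM of the choroid plexus and ciliated cell sum. In bulk tissue, fewer cells of a type and less RNA per cell cannot be told apart, and the part of these cell types in the miR-181 levels was not tested.

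In counted reads, the family as a whole was at almost the same level in both cortices. Its 6 genes summed to 21218 counts and 4805 CPM in animal 1, and to 11407 counts and 5004 CPM in animal 2, a mean of 4905 ± 141 CPM (SD, n = 2). Exact Clopper-Pearson 95% intervals are given in brackets. The family's share of counts was 0.481% in animal 1 (0.474 to 0.487%) and 0.500% in animal 2 (0.491 to 0.510%). These intervals did not overlap, so the small difference between the animals lay beyond counting error. Intervals cover the counting error of reads only, since an amplified read need not stand for a separate molecule. All 6 members were detected, against 415 of the 2202 genes measured (18.8%). The members' mean levels had a median of 808 CPM, against 87.0 CPM over the 415 detected genes.

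In counted reads the members spanned a 101-fold range and fell into 3 levels. These split the chromosome 1 and chromosome 2 pairs and kept the chromosome 8 pair together. Only the chromosome 8 genes have no arm that a second hairpin shares, so the levels and ranks are those of counted reads. Mir181d, Mir181b-2 and Mir181c were at 1288 to 1720 CPM, Mir181a-1 was at 295 and 299.6 CPM, and Mir181b-1 and Mir181a-2 were at 14.5 to 27.2 CPM. Among all 2202 genes, Mir181d ranked 75th, Mir181b-2 77th, Mir181c 83rd, Mir181a-1 150th, Mir181b-1 265th and Mir181a-2 284th by mean CPM.

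Mir181d, from the chromosome 8 cluster, had 7318 counts (1657 CPM) in animal 1 and 3922 counts (1720 CPM) in animal 2, a mean of 1689 ± 44.7 CPM (SD, n = 2). Its neighbour Mir181c had 5959 counts (1349 CPM) in animal 1 and 2937 counts (1288 CPM) in animal 2, a mean of 1319 ± 43.2 CPM. Mir181d was above Mir181c in both animals, 1.23-fold in animal 1 (95% counting interval 1.19 to 1.27) and 1.34-fold in animal 2 (1.27 to 1.40). This was the most even pair of neighbours in the family. Both hairpins have 2 arms found in no other annotated hairpin, so a read of a whole arm matches no second one exactly.

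Mir181b-2, from the chromosome 2 cluster, had 6482 counts (1468 CPM) in animal 1 and 3770 counts (1654 CPM) in animal 2, a mean of 1561 ± 131 CPM (SD, n = 2). Mir181a-2, its neighbour, had 84 counts (19.0 CPM) in animal 1 and 33 counts (14.5 CPM) in animal 2, a mean of 16.7 ± 3.21 CPM. The b hairpin was thus counted 77.2 times as often as the a hairpin in animal 1 (62.2 to 96.9) and 114 times as often in animal 2 (81.2 to 166).

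On chromosome 1 the order was the opposite. Mir181a-1 had 1301 counts (295 CPM) in animal 1 and 683 counts (299.6 CPM) in animal 2, a mean of 297 ± 3.53 CPM (SD, n = 2). Mir181b-1 had 74 counts (16.8 CPM) in animal 1 and 62 counts (27.2 CPM) in animal 2, a mean of 22.0 ± 7.38 CPM. The a hairpin was counted 17.6 times as often as the b hairpin in animal 1 (13.9 to 22.5) and 11.0 times as often in animal 2 (8.49 to 14.5).

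Each step in the order of counted levels was set against counting error only. Mir181b-2, Mir181a-1, Mir181b-1 and Mir181a-2 have a 5p arm that a second hairpin shares, whereas Mir181d and Mir181c do not. The steps therefore order counted reads, and the part of the shared arms in them was not tested. Mir181d stood above Mir181b-2 by 1.13-fold in animal 1 (1.09 to 1.17), but in animal 2 the ratio of 1.04 (0.995 to 1.09) did not separate them. Mir181b-2 stood above Mir181c by 1.09-fold in animal 1 (1.05 to 1.13) and 1.28-fold in animal 2 (1.22 to 1.35). Mir181c stood above Mir181a-1 by 4.58-fold in animal 1 and 4.30-fold in animal 2. Mir181b-1 and Mir181a-2 had no fixed order: the ratio was 0.881 in animal 1 (0.636 to 1.22) and 1.88 in animal 2 (1.21 to 2.96), and their ranges over the animals overlapped.

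**Figure D2:**
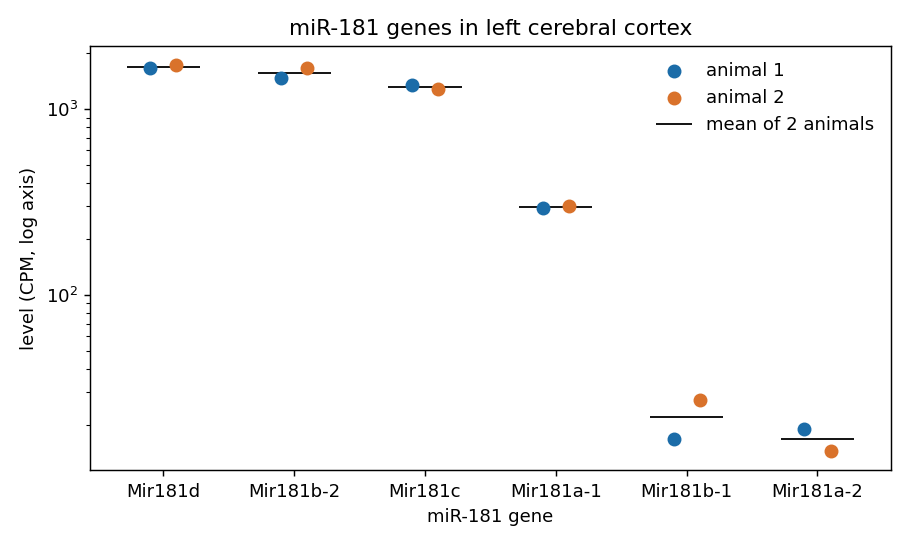
Level of each miR-181 gene in CPM on a log axis, with 1 point per animal and a bar at the mean of both. Mir181d, Mir181b-2 and Mir181c sit together at the top, Mir181a-1 lies between the groups at 295 and 299.6 CPM, and Mir181b-1 and Mir181a-2 overlap at 14.5 to 27.2 CPM.

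Counted by cluster, chromosome 8 held most of the family. Its pair took 62.6% of family counts in animal 1 (61.9 to 63.2%) and 60.1% in animal 2 (59.2 to 61.0%), a mean of 61.4% ± 1.73 (SD, n = 2). The chromosome 2 pair took 30.9% in animal 1 (30.3 to 31.6%) and 33.3% in animal 2 (32.5 to 34.2%). The chromosome 1 pair took 6.48% in animal 1 (6.15 to 6.82%) and 6.53% in animal 2 (6.08 to 7.0%). These shares cover counted reads, and 4 of the 6 genes have an arm that a second hairpin shares.

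The copies that share a 5p arm were far from equal. Mir181b-2 had 87.6 times the counts of Mir181b-1 in animal 1 (69.7 to 112) and 60.8 times in animal 2 (47.3 to 79.5). Mir181a-1 had 15.5 times the counts of Mir181a-2 in animal 1 (12.4 to 19.6) and 20.7 times in animal 2 (14.6 to 30.3). The higher copy came from chromosome 2 for miR-181b and from chromosome 1 for miR-181a.

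For comparison, 23 pairs of genes in the tables had exactly 1 arm in common with each other and 1 arm of their own. Both copies were detected in 16 of them, and the higher copy (by mean CPM) had a median of 2.78 times the counts of the lower, taking the mean of the 2 animals' ratios. On this measure the miR-181b pair was first of the 16, at 74.2-fold, and the miR-181a pair was the third, at 18.1-fold. Between them was the pair Mir92-1 and Mir92-2 at 27.3-fold. The same copy was higher in both animals in 14 of the 16 pairs, the miR-181 pairs included. This is a description, chosen after the members' values were seen, and how an unequal count relates to the use of either copy was not tested.

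**Figure D3:**
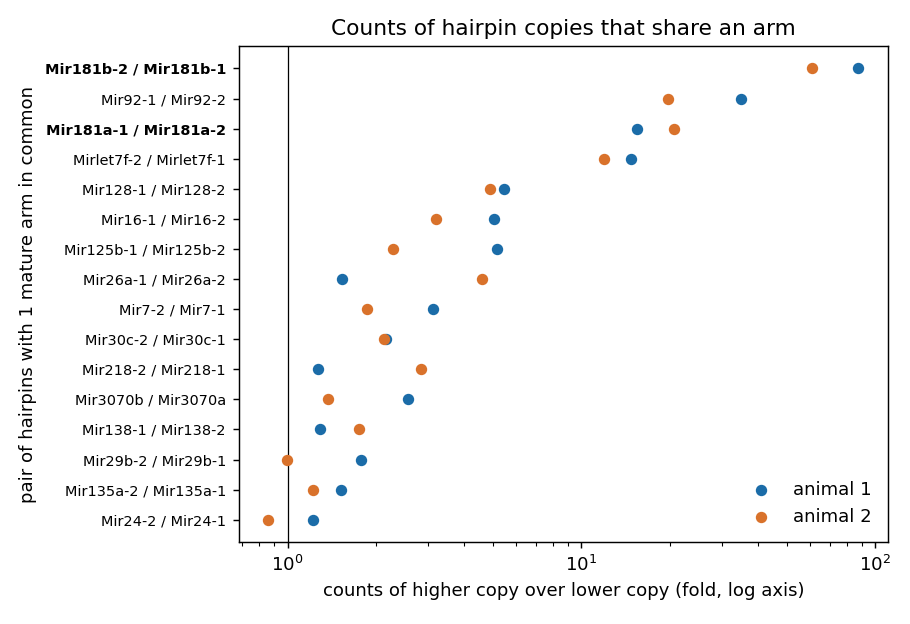
Counts of the higher copy over the lower copy, on a log axis, for the 16 pairs of hairpins that share 1 mature arm and were both detected, with 1 point per animal; the miR-181 pairs are in bold. The miR-181b pair lies farthest right at 87.6 and 60.8, and the miR-181a pair is the third at 15.5 and 20.7.

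The members were also placed among all genes by how many of their arms another hairpin holds. Over the 657 genes with 2 RefSeq arms found in their hairpin, 573 had both arms in no other hairpin, 61 had 1 such arm and 23 had none. Of these, 278 (48.5%), 38 (62.3%) and 4 (17.4%) were detected, and the median levels were 2.33, 22.0 and 0 CPM. The classes differ in more than their arms, so these values only locate the members. Among the 61 genes with 1 arm of their own, Mir181b-2 ranked 7th, Mir181a-1 13th, Mir181b-1 31st and Mir181a-2 34th. Among the 573 with both, Mir181d ranked 51st and Mir181c 57th.

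Members were also compared between the animals. The exact 95% interval of animal 1's share of a gene's counts was compared with the share that the library totals give, and genes where that share fell outside the interval are called outside counting error. Of the 6 members 3 were outside, against 56.6% of the 415 detected genes, so the members' count was near the background. By direction, 1 member was higher in animal 1, against 27% of detected genes, and 2 were higher in animal 2, against 29.6%. The order of the background split depended on scaling. It was 112 genes higher in animal 1 and 123 in animal 2 here, and 123 and 116 with TMM scaling, an alternative named below. The log2 ratio, animal 1 over animal 2, was -0.70 for Mir181b-1, which was higher in animal 2 (counting interval -1.21 to -0.19). Mir181b-2 was also higher in animal 2, at -0.17 (-0.23 to -0.11). Mir181c was higher in animal 1 by a small amount, at 0.07 (0.003 to 0.13), and with counts taken from both strands together it was no longer outside while Mir181d was.

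The remaining 3 members were inside counting error. Mir181d had a log2 ratio of -0.05 (-0.11 to 0.002), Mir181a-1 of -0.02 (-0.16 to 0.11) and Mir181a-2 of 0.39 (-0.20 to 1.02). With 84 and 33 counts, Mir181a-2 could have differed by up to 1.02 on the log2 scale without being seen. On the log2(CPM + 1) scale the members had a median absolute ratio of 0.12, against 0.32 over the 415 detected genes. At 1000 CPM or more, where 90 of 100 detected genes were outside counting error, the median was 0.24. No p-value was computed, since only a pair of libraries of 1 group was compared.

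**Figure D4:**
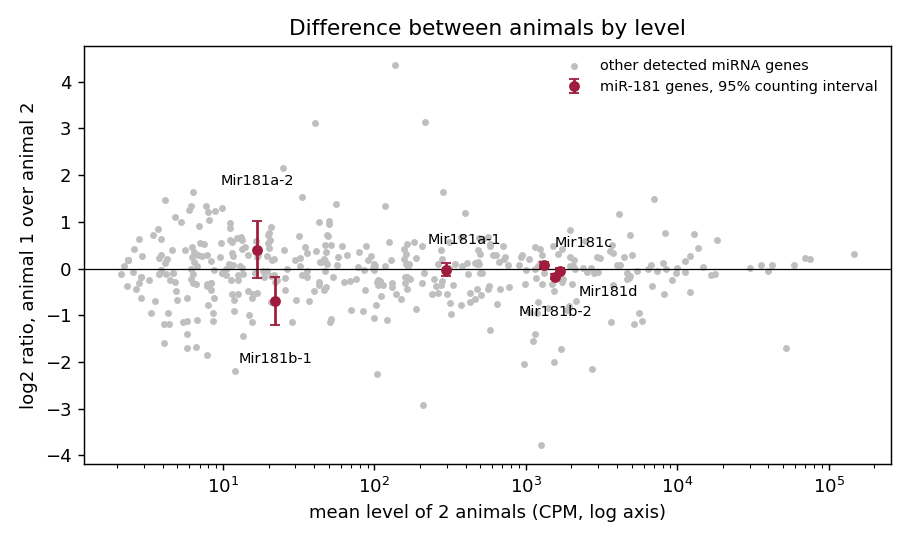
Log2 ratio of CPM, animal 1 over animal 2, against the mean level on a log axis, with miR-181 genes in red with 95% counting intervals and the other detected genes in grey. Mir181b-1 and Mir181a-2, the members with the fewest counts, have the widest intervals, and the other 4 lie within -0.17 to 0.07.

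Set beside other families grouped by the number in the gene symbol, miR-181 took rank 4 by summed level among the 16 with at least 4 genes. Above it were let-7 at 246633 CPM over 11 genes, miR-30 at 15139 CPM over 7 and miR-29 at 9784 CPM over 4. The leading gene held 34.4% of the miR-181 sum, 30.5% of the let-7 sum, 55.3% of the miR-30 sum and 94.2% of the miR-29 sum. These are descriptions of counted reads with no test.

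The detected genes nearest to Mir181d in log2(CPM + 1) over the 2 libraries were Mir760, Mir484 and Mir1249, at Euclidean distances of 0.02, 0.14 and 0.17. In animals 1 and 2, Mir760 had 1668 and 1741 CPM, Mir484 had 1631 and 1892 CPM, and Mir1249 had 1563 and 1906 CPM. With 2 libraries this likeness is mainly one of level.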

How the data were processed

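The authors deposited a table for each library with unnormalized read counts at every miRNA gene. Per the deposited metadata the build is mm10 and the annotation GENCODE M21; the aligner, any trimming and any filter were not given in the sources used here. Columns have no header; of the 3 count columns, the one whose strand-assigned sum was larger in both libraries was used. The first 4 entries of each table, which name no gene, stayed out of totals. Of all reads, 23.4% (animal 1) and 47.1% (animal 2) were unmapped. Unmapped reads, several-place reads and reads at no gene were left out of CPM.

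Gene names and positions came from GENCODE M21, mature arms from RefSeq (GRCm38.p6) and hairpins from GENCODE M21 transcripts. An arm was shared when it occurred whole in another measured hairpin; genome positions outside annotated hairpins were not searched. Printed sequences are the C57BL/6J reference, and CAST alleles were not examined. Printed log2 ratios of single members are of CPM without a pseudocount; medians use log2(CPM + 1).

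Members and lists were chosen with earlier results of these data known. Named genes were the 6 members, the 3 genes nearest to the most abundant member, overlapping genes and the marker lists (neuron, leukocyte, erythroid, choroid plexus and ciliated, liver and striated muscle); Mir92-1, Mir92-2 and the other families were named after their values were seen. With 1 group no differential test was run. Alternatives used edgeR 4.0.16 (TMM) and DESeq2 1.42.0 (size factors); other steps used Python 3.11.15 and SciPy 1.17.1.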

Additional observations from a re-analysis of the deposited data

Results flagged for a closer look

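Reads outside the counts used for the levels were numerous. The separate entry for reads mapping to several places held 48.9% (animal 1) and 48.2% (animal 2) of mapped reads, above the 42.6% and 42.5% counted at miRNA genes. The tables do not divide these reads by gene, so the part that came from miR-181 hairpins was not measured.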

How the results depend on the processing

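No paired analysis was possible because both libraries form 1 group. The count of members outside counting error stayed at 3, and the count of members detected at 6, under each scaling, filter and strand setting run for them; the 3 members differed by setting, since with unstranded counts Mir181c (log2 ratio 0.06) came inside the interval and Mir181d (-0.06) went outside it. Their own counts were equal in both columns, and only the library totals differed. The count over all genes kept was 235 of 415 (56.6%) in the main setting. It ran from 207 (detection at 10 CPM) to 256 (no filter), over different numbers of genes. With no filter, only the 1456 of 2202 genes at 0 in both animals were left out. Shares were not computed for the other filters, so the members' nearness to the background holds for the main setting only. The family's summed level was 4905 CPM and depended on what it was divided by: it was 4648 with DESeq2 size factors, 5243 with unstranded counts, 5746 without the most abundant gene in the total, 2087 per 1000000 mapped reads and, in a setting added after seeing the data, 5257 over genes with an arm in no other hairpin. Leaving out either replicate gave 4805 to 5004 CPM for the family, 60.1 to 62.6% for the chromosome 8 share and 6 members detected. When an arm counted as shared by its first 18 bases, the median level was 2.25 CPM for genes with 2 arms of their own and 28.4 CPM for genes with 1. With whole arms, leaving out either replicate gave medians of 2.19 to 2.26 and of 23.6 to 26.3 CPM. The median of genes with none was 0 in each of these settings. Depth limits Mir181b-1 and Mir181a-2, which had at most 84 counts in a library.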
